A study of Homo sapiens with 6 samples.

Results

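The 9 genes of the APOBEC cytidine deaminase family described here are *APOBEC1*, *APOBEC2*, *APOBEC3A*, *APOBEC3B*, *APOBEC3C*, *APOBEC3D*, *APOBEC3F*, *APOBEC3G* and *APOBEC3H*. They were taken by gene symbol from the authors' annotated table, where each of the 9 has 1 transcript cluster, among 24930 genes with a symbol of their own. The samples were T24/THP, a pirarubicin-resistant derivative of the human bladder carcinoma line T24 (3 arrays), and its drug-sensitive parent T24 (3 arrays). The labels give the resistant line as selected by 24 h pulses of pirarubicin, an anthracycline that poisons topoisomerase II, at 5 to 1000 ng/ml over more than 6 months, and re-dosed every 2 to 3 weeks afterwards, while the parent was kept in culture in parallel. Since selection was done once and gave 1 resistant line, the p-values speak of array-to-array spread among 3 samples of 1 culture lineage in each line. The time between the last dose and RNA extraction is not given in the sources used here.

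Most enzymes of this family turn cytosine into uracil in single-stranded DNA or in RNA. The APOBEC3 genes form a tandem array on chromosome 22 that expanded in primates, and their products hypermutate or block retroviruses and retrotransposons. Several are induced by interferon. *APOBEC3A* and *APOBEC3B* can also mutate the cell's own genome, and the mutational signature ascribed to them is common in urothelial carcinoma.

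Every APOBEC3 gene with signal above background was lower in the resistant line. *APOBEC3G* fell 2.80-fold, *APOBEC3B* 2.12-fold, *APOBEC3C* 1.98-fold, *APOBEC3A* 1.76-fold, *APOBEC3F* 1.56-fold and *APOBEC3D* 1.28-fold. Most restriction factors on a list outside the family rose in the same arrays, but that list was drawn up with earlier results of these arrays known. A gene is said to have risen or fallen at an adjusted p under 0.05 (limma, Benjamini-Hochberg over all 24930 genes), and is called where the difference was also at least 2-fold. Of the 9 genes 6 fell and none rose, and 2 were called lower, *APOBEC3B* and *APOBEC3G*. Over all genes 18% fell and 3.77% were called lower. Among the 10519 genes above background in at least 1 line 37.4% fell and 8.8% were called lower, so a fall by itself was common at these levels. The median difference of the 9 genes was −0.64 log2 units, and −0.90 for the 6 above background, against 0.01 over all genes and −0.08 over those above background. The arrays measured RNA pooled over a culture, so a smaller share of expressing cells and less transcript per cell cannot be told apart.

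**Figure D1:**
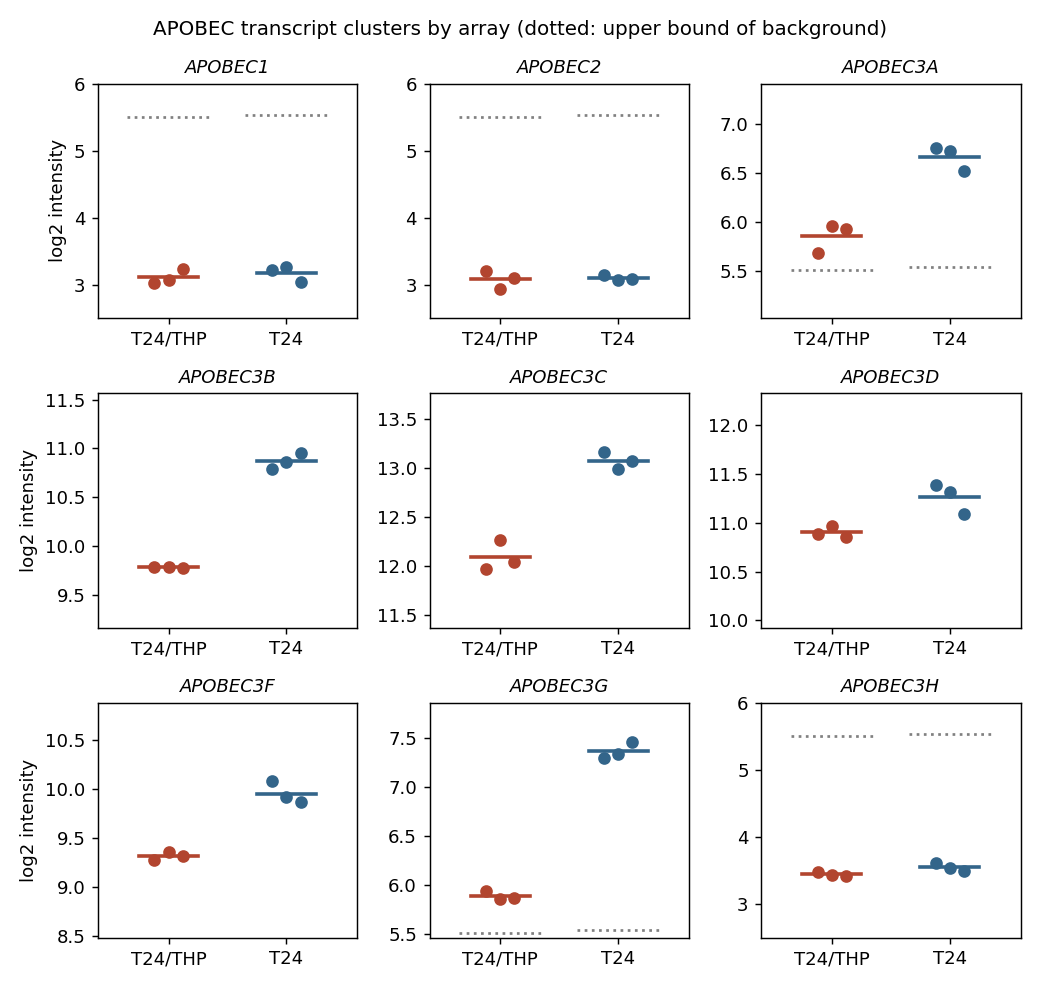
Log2 intensity of the 9 APOBEC transcript clusters on each array, T24/THP (red) left of T24 (blue). Points are arrays, bars are means of 3 arrays and dotted lines are the upper bound of background, 5.51 in T24/THP and 5.54 in T24. The 6 genes from *APOBEC3A* to *APOBEC3G* have all T24/THP points below all T24 points, and *APOBEC1*, *APOBEC2* and *APOBEC3H* lie under the bound.

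Values are log2 intensities per array, and background was read from 23 control probe sets. On each array the brightest control was taken, and averaging these within a line gave bounds of 5.51 for T24/THP and 5.54 for T24. Typical controls were far dimmer, with medians of 2.65 to 2.86 per array. The T24 bound was lifted by replicate 3, whose brightest control stood at 6.38, against 5.29 and 4.93 on the other T24 arrays. Probe sets differ in brightness, so levels are compared between lines for 1 gene and not between genes.

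*APOBEC3G* encodes the enzyme that is packaged into HIV-1 particles lacking Vif and hypermutates the viral DNA. It measured 5.93, 5.85 and 5.86 in T24/THP, against 7.30, 7.34 and 7.46 in T24. The resistant arrays lay just above the bound and all below the parental ones. The difference was −1.49 ± 0.0650 (SE, n = 3 each), with a limma adjusted p of 4.64e-06. Of all genes, 1.40% had a lower difference. Its transcript cluster (TC22001468.hg.1, 199 probes) spans 39473010 to 39483748 on chromosome 22 in GRCh37. *APOBEC3G* was the member whose call survived a test against a 2-fold difference itself.

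*APOBEC3B* encodes a nuclear deaminase that is active on genomic DNA in many carcinomas. It measured 9.79, 9.79 and 9.77 in T24/THP, against 10.79, 10.87 and 10.95 in T24. The parental arrays varied more, with an SD of 0.0796 against 0.010 in the resistant ones, and the lines did not overlap. The difference was −1.09 ± 0.0605 (SE), with a limma adjusted p of 1.27e-05 and a 95% interval of −1.23 to −0.95. It sat at the 2-fold line, and fell short of it with quantile normalization (−0.97) and with the trend of differences with level removed (−0.95). Its cluster (TC22001425.hg.1, 179 probes) spans 39378352 to 39394225.

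*APOBEC3A* encodes a deaminase of myeloid cells and keratinocytes with high activity on single-stranded DNA. It measured 5.67, 5.95 and 5.93 in T24/THP, against 6.75, 6.72 and 6.52 in T24. All resistant arrays were below all parental ones, by at least the gap between 5.95 and 6.52. The difference of −0.81 ± 0.0983 (SE) had a limma adjusted p of 0.000473 and missed 2-fold. Adding an offset of 32 to the linear values shrank it to −0.57, as that offset does to any difference at such levels. Its cluster (TC22001424.hg.1, 140 probes) spans 39348746 to 39388783, of which 10432 bases, or 26.1%, overlap the *APOBEC3B* cluster on the same strand. Which probes lie in the overlap was not analysed here, so part of the *APOBEC3A* signal may be shared with *APOBEC3B*.

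*APOBEC3C* encodes a small enzyme with activity against retrotransposons. It measured 11.97, 12.27 and 12.04 in T24/THP, against 13.16, 12.99 and 13.07 in T24, with no overlap. The difference of −0.98 ± 0.0909 (SE) had a limma adjusted p of 0.000122. It lay just under the 2-fold line, which was crossed without T24/THP replicate 2 (−1.07) and without T24 replicate 2 (−1.03). It was −0.85 with quantile normalization. Its cluster (TC22001426.hg.1, 60 probes, 39410088 to 39414931) lies wholly inside the span of the *APOBEC3D* cluster.

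*APOBEC3F*, which like *APOBEC3G* restricts HIV-1 lacking Vif, measured 9.28, 9.35 and 9.32 in T24/THP, against 10.08, 9.92 and 9.87 in T24. The lines did not overlap, and the difference of −0.64 ± 0.0705 (SE) had a limma adjusted p of 0.000301. With quantile normalization the *APOBEC3F* difference was −0.48, and with the level trend removed −0.52. Its cluster (TC22001467.hg.1, 186 probes) spans 39436609 to 39451975. *APOBEC3D*, a weaker restriction factor, measured 10.89, 10.97 and 10.86 in T24/THP, against 11.39, 11.32 and 11.09 in T24. The gap was narrow, between 10.97 and 11.09, and the difference was −0.36 ± 0.0873 (SE, limma adjusted p of 0.0149). That p was over 0.05 with quantile normalization (0.0758), with the level trend removed (0.135), and without T24/THP replicate 1 (0.0515), T24/THP replicate 3 (0.0566) or T24 replicate 2 (0.0551). The *APOBEC3D* cluster (TC22001427.hg.1, 110 probes) spans 39378458 to 39429256. That takes in 99.3% of the *APOBEC3B* cluster and all of the *APOBEC3C* cluster, so it overlaps 3 other clusters of the family, *APOBEC3A* included. Which probes lie in these overlaps was not analysed here. Part of the signal of *APOBEC3B*, *APOBEC3C* and *APOBEC3D* may thus be shared, and their falls may not be separate measurements.

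**Figure D2:**
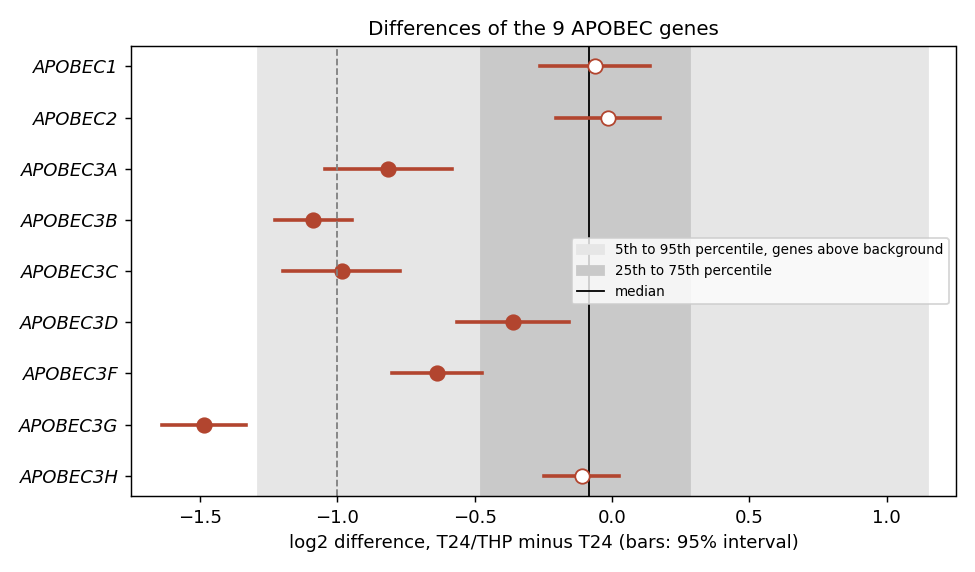
Log2 difference of each APOBEC gene, T24/THP minus T24, with its 95% interval, filled where the adjusted p was under 0.05 and open otherwise. Grey bands are percentiles of the 10519 genes above background, whose 5th percentile was −1.29 and median −0.08, and the dashed line marks a 2-fold fall. *APOBEC3G* alone lies beyond the 5th percentile, and *APOBEC3B* and *APOBEC3C* lie near the dashed line.

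An exact permutation test could not settle whether the falls differed in size, because 3 arrays a line limit its smallest p. The limma 95% interval of *APOBEC3G* (−1.64 to −1.33) lay below those of all other members above background. The intervals of *APOBEC3F* (−0.80 to −0.47) and *APOBEC3D* (−0.57 to −0.16) overlapped each other. The measured change of *APOBEC3G* exceeded that of *APOBEC3D* by 1.12 log2 units and that of *APOBEC3F* by 0.85. Per-array ratios of 2 genes were compared between the lines for the 15 pairs of the 6 genes. In 12 pairs all T24/THP ratios lay on one side of all T24 ratios. How often pairs of other genes separate in this way was not counted, so that count is a description. In the exact permutation test (two-sided, n = 3 each) these 12 pairs gave p = 0.10, the smallest that 3 against 3 arrays allow, or 0.125 after Benjamini-Hochberg adjustment over the 15 pairs, so no pair could pass a threshold of 0.05. The other pairs were *APOBEC3A* with *APOBEC3B* (exact p = 0.20), *APOBEC3A* with *APOBEC3C* (exact p = 0.30) and *APOBEC3B* with *APOBEC3C* (exact p = 0.50).

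*APOBEC3H*, an antiviral enzyme whose stability varies between human haplotypes, was in the background range at 3.48, 3.43 and 3.42 in T24/THP, against 3.62, 3.54 and 3.50 in T24. Its difference of −0.11 had a 95% interval of −0.25 to 0.02 (limma adjusted p of 0.206), although the arrays of the lines did not overlap. Such separation below T24 was found in 7 of the 9 members, in 23.2% of all genes and in 43.2% of genes above background. *APOBEC1*, which edits apolipoprotein B mRNA in the intestine, measured 3.02, 3.07 and 3.24 in T24/THP, against 3.21, 3.26 and 3.04 in T24, with an interval of −0.26 to 0.14. *APOBEC2*, a muscle protein, measured 3.21, 2.93 and 3.10 in T24/THP, against 3.14, 3.06 and 3.08 in T24, with an interval of −0.20 to 0.17. None of these 3 genes had signal from which a fold could be given. *APOBEC3H* (TC22000311.hg.1) lies at 39493229 to 39500072 on chromosome 22, *APOBEC1* (TC12001163.hg.1) on chromosome 12 at 7801996 to 7818502 and *APOBEC2* (TC06000563.hg.1) on chromosome 6 at 41020940 to 41032630.

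RefSeq promoter windows, 250 bases before to 50 after a start site in GRCh38.p14, were matched for 3 of the 9 genes, *APOBEC1*, *APOBEC2* and *APOBEC3H*. The *APOBEC3H* window is shown as the one matched inside the APOBEC3 array, and that of *HERC5*, an interferon-induced ubiquitin ligase that rose in these arrays, is shown beside it. Capitals mark the core of the interferon-stimulated response element, GAAANNGAA on either strand, which 8.11% of all 35116 windows hold.
APOBEC3H (chr22:39096994-39097293, plus strand): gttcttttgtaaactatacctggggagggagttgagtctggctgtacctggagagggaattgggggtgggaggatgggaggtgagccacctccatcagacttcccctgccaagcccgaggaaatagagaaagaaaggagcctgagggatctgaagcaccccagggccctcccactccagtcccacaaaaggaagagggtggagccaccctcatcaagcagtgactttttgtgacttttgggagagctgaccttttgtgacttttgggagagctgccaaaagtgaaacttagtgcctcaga
HERC5 (chr4:88456869-88457168, plus strand): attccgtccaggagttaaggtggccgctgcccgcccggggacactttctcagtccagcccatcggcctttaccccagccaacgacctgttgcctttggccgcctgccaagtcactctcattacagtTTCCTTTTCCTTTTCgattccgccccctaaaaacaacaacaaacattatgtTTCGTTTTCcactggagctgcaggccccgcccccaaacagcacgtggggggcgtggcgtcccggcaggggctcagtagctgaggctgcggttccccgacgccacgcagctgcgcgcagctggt
The *HERC5* window holds the core 3 times on the opposite strand, with 2 of the matches overlapping and all 3 before the start site. The *APOBEC3H* window holds no match to it, nor to the STAT site TTCNNNGAA, the CHR element TTTGAA, the E2F site TTTCGCGC or TTTGGCGC, or the NF-kB consensus. The *APOBEC1* window holds the STAT site after its start site, as do 7.66% of all windows somewhere, and the *APOBEC2* window holds none of these motifs. Windows of *MX1*, which rose more than *HERC5*, were also searched and are not shown. They hold the interferon core, the STAT site and the NF-kB consensus, but not every *MX1* window holds a match. These matches describe letters in the windows and carry no measurement of binding.

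Genes flanking the APOBEC3 array went both ways. Within 600 kb of the array on either side, 11 other genes were above background in at least 1 line. Of these 3 fell and 4 rose, with a median difference of −0.09, where 37.4% of all genes above background fell and 26.8% rose. On the list of flanking genes, with 20 of 21 measured and 10 in the background range in both lines, 4 fell and 6 rose and the median was −0.02. *TOMM22*, a subunit of the mitochondrial import pore, measured 8.98, 9.24 and 9.06 in T24/THP, against 9.98, 10.29 and 10.14 in T24, and was the 1 called lower (−1.05, adjusted p of 0.000143). *DDX17*, an RNA helicase, was the 1 called higher, 2.02-fold, and was under 2-fold without T24 replicate 3 (0.97). *TOMM22* was under 2-fold with quantile normalization (−0.91), the level trend removed (−0.92), and without T24/THP replicate 1 (−0.99) or T24 replicate 2 (−0.97). Of 3 clusters with no gene symbol between the members, a noncoding one just downstream of *APOBEC3G* (TC22000310.hg.1, 39487639 to 39488860) did not exceed the bound in either line, with 3.41, 3.46 and 3.27 in T24/THP, against 5.07, 4.96 and 4.80 in T24. Clusters without a symbol were not tested, so its difference of −1.56 is a description.

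**Figure D3:**
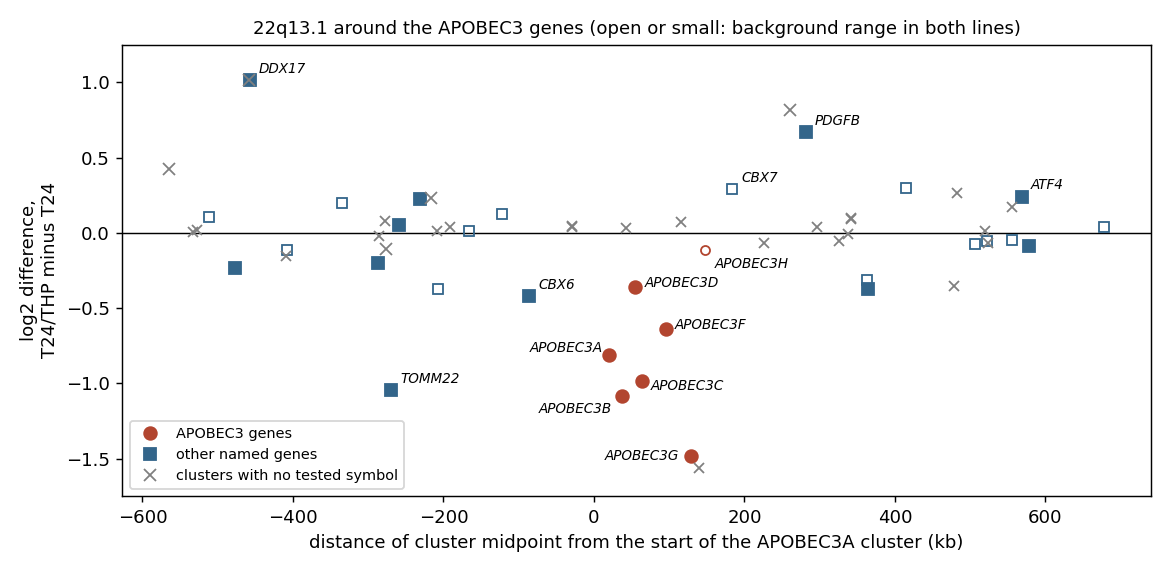
Log2 difference, T24/THP minus T24, of every transcript cluster around the APOBEC3 array against the distance of its midpoint from the start of the *APOBEC3A* cluster, in kb. Red circles are APOBEC3 genes, blue squares other named genes and grey crosses clusters with no tested symbol, with open or small marks for the background range in both lines. The APOBEC3 genes from *APOBEC3A* to *APOBEC3G* lie between −0.36 and −1.49, while flanking genes lie on both sides of 0.

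The interferon pathway that can induce APOBEC3 genes was higher at several of its members. Of 18 genes of interferon signalling 9 rose and 2 fell, 4 of them called higher and none lower, with a median of 0.18. By comparison, 26.8% of all genes above background rose and 6.45% were called higher. *STAT2*, a factor that carries the signal of type I interferon receptors, measured 11.35, 11.50 and 11.51 in T24/THP, against 8.31, 8.06 and 8.37 in T24. The lines were far apart, and *STAT2* was 9.24-fold higher in T24/THP (limma adjusted p of 9.03e-07). *IRF9*, which binds DNA in a complex with *STAT2*, rose 1.49-fold (0.000321) and was not called. All 6 APOBEC3 genes above background thus fell in arrays where *STAT2* and *IRF9* rose, and what links the changes was not tested.

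Restriction factors outside the family mostly rose. Of 20 measured 16 rose and 1 fell, 9 called higher and 1 lower, with a median of 0.87. *MX1*, a dynamin-like GTPase that blocks influenza virus, measured 9.71, 9.66 and 9.73 in T24/THP, against 6.20, 6.15 and 5.65 in T24, a 13.0-fold rise (limma adjusted p of 2.80e-06). *HERC5*, which attaches ISG15 to new proteins, rose 10.3-fold (1.35e-07). *SLFN11*, which restricts HIV-1 and arrests stressed replication forks, was the 1 to fall, at 8.12, 8.17 and 8.02 in T24/THP, against 9.62, 9.61 and 9.64 in T24. That was a difference of −1.52 (3.20e-06), close to the −1.49 of *APOBEC3G*. Over all genes 15.1% rose and 2.85% were called higher, and among those above background 26.8% and 6.45%. The lists were drawn up with earlier results of these arrays known, so the rise of interferon-stimulated genes is not independent evidence here.

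Most repressors and activators that act on *APOBEC3B* through the cell cycle fell. Of 21 genes of the DREAM complex, the E2F factors and B-MYB, 14 fell, 2 rose and 5 did not pass the test. The list held 7 called lower and 1 called higher, with a median of −0.53. Among all genes above background 37.4% fell and 8.8% were called lower. *MYBL2*, the B-MYB activator of mitotic genes, measured 7.89, 7.81 and 7.52 in T24/THP, against 10.44, 10.90 and 10.79 in T24, a 7.85-fold fall (limma adjusted p of 6.51e-06). *E2F8*, an atypical E2F repressor, was 5.52-fold lower (1.33e-05) and *FOXM1*, a mitotic activator, 4.58-fold lower (7.68e-06). *E2F4*, an E2F factor of the repressive DREAM complex, fell 1.44-fold (0.0139). *E2F5*, the 1 called higher, stayed under the bound in both lines and was at 0.49 with the offset of 32. *RBL2*, a gene of the DREAM complex, was the other to rise. It was above background in both lines and rose 1.48-fold (limma adjusted p of 0.000454), and was named after its values were seen. The part of these cell cycle genes in the fall of *APOBEC3B* was not tested.

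The NF-kB and protein kinase C route that can also induce *APOBEC3B* went both ways. Of 16 genes 4 rose and 3 fell, 2 called higher and none lower, with a median of −0.05. The shares among all genes above background were 26.8% that rose, 6.45% called higher and 37.4% that fell. *IKBKB*, a kinase that releases NF-kB, rose 3.06-fold (limma adjusted p of 4.30e-06) and *BIRC3*, an NF-kB target and regulator of the pathway, 2.26-fold (8.07e-06). *RELB*, in the background range in both lines, differed by 0.17 with a 95% interval of 0.01 to 0.32 (adjusted p of 0.0967). *NFKB2* differed by −0.05, with an interval of −0.19 to 0.08. Of 9 epithelial genes linked to *APOBEC3A*, most of them regulators, 4 rose and 1 fell. In both lines 5 of the 9 were in the background range, *GRHL1*, which rose, among them. *KLF5*, a Krüppel-like factor of proliferating epithelium, rose 2.56-fold (2.54e-05), while *TFAP2C*, an AP-2 factor, was at least 4.25-fold lower (3.03e-05). *GRHL3*, a grainyhead factor that induces *APOBEC3A* in keratinocytes, did not exceed the bound in either line, with 3.52 ± 0.03 in T24/THP and 3.41 ± 0.06 in T24 (SD, n = 3 each).

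Genes of the repair that follows uracil in DNA went mostly down, with exceptions at its first step. Of 19 genes of uracil excision and abasic site repair 13 fell and 2 rose, 5 called lower and none higher, with a median of −0.82. Over all genes above background 37.4% fell and 8.8% were called lower. *UNG*, the uracil DNA glycosylase, measured 6.43, 6.73 and 6.70 in T24/THP, against 7.40, 7.92 and 7.77 in T24. Its difference of −1.08 ± 0.141 (SE, limma adjusted p of 0.000728) was under 2-fold with the offset of 32 (−0.88), without T24/THP replicate 1 (−0.98) and without T24 replicate 2 (−0.97). Of the other glycosylases that act on uracil or its mismatches, *SMUG1* differed by −0.02 (adjusted p of 0.859), *TDG* by −0.08 (0.405) and *MBD4* by 0.02 (0.899), and none passed the test. *POLB*, the gap-filling polymerase, rose 1.91-fold (0.000567) and *REV3L*, a translesion polymerase subunit, 1.56-fold (0.000527). These 5 genes were named after their values were seen. Leaving out T24 replicate 2 brought the count called lower to 3. *FEN1*, the flap nuclease of long-patch repair and of replication, was 5.52-fold lower (6.14e-05), and *PARP1*, a sensor of strand breaks, 2.40-fold lower (4.94e-05).

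Most genes on a wider list of other deaminases and their relatives, including those of free nucleosides and nucleotides, did not pass the test. Of 13 measured, 7 stayed under the bound in both lines, 3 fell and 1 rose, and the median was −0.01. *ADAR*, the interferon-inducible adenosine deaminase of double-stranded RNA, measured 12.12, 12.34 and 12.32 in T24/THP, against 10.47, 10.60 and 10.70 in T24, a 3.18-fold rise (limma adjusted p of 1.00e-05). *ADAT1*, an adenosine deaminase of transfer RNA, was 2.59-fold lower (2.29e-05). Of 5 cofactors of *APOBEC1* editing 4 fell and 1, *HNRNPAB*, was called, 3.39-fold lower (1.27e-05). *A1CF*, the complementation factor itself, stayed under the bound in both lines. Of 8 genes of the CUL5 ligase that HIV-1 Vif recruits to degrade APOBEC3 proteins 4 fell, none was called and the median was −0.24. Among all genes above background 37.4% fell.

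**Figure D4:**
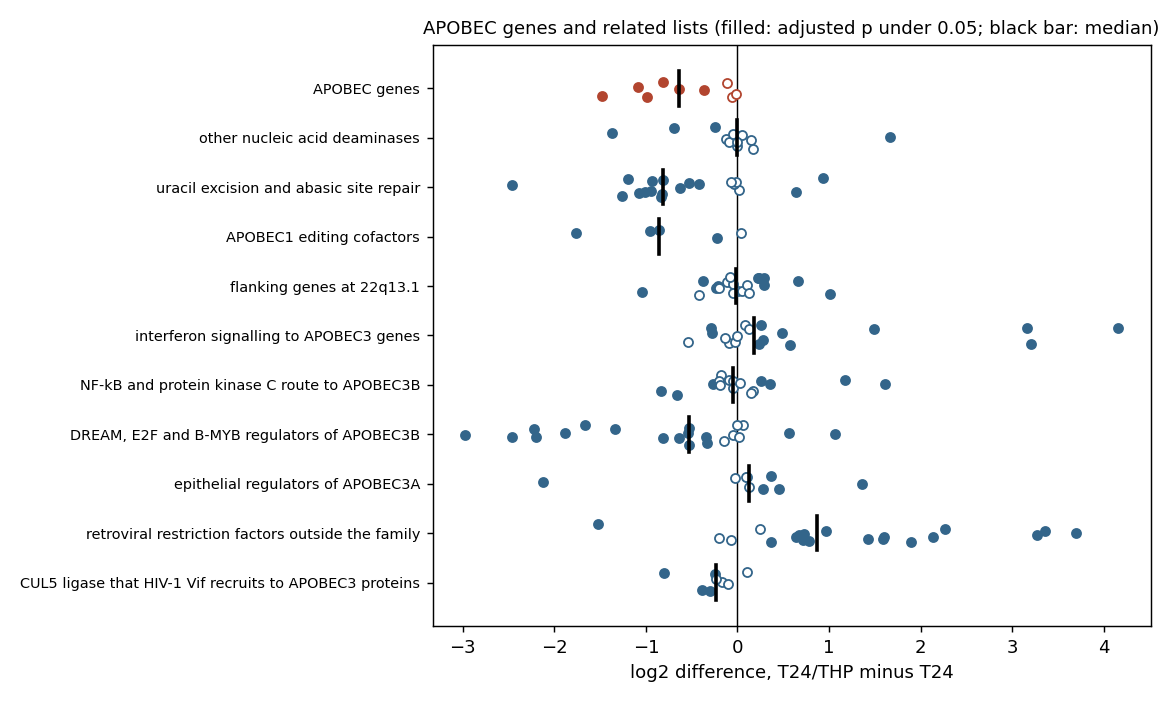
Log2 difference, T24/THP minus T24, of each gene of the APOBEC family (red) and of the related lists (blue), filled where the adjusted p was under 0.05, with a black bar at each list's median. The median was −0.64 for the APOBEC genes, 0.87 for the other restriction factors, −0.53 for the DREAM and E2F list and −0.82 for uracil repair.

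The genes nearest in pattern over the 6 arrays were sought among 9732 genes above background in at least 1 line, leaving out the members and antisense or unnamed transcripts, by the root mean square difference after centring on the T24 mean. For *APOBEC3G* they were *MRE11* (0.0413 log2 units), *MPP1* (0.0519) and *EXOSC9* (0.0564). *MRE11* differed by −1.44 and *EXOSC9* by −1.45. *MPP1* was under the bound in T24/THP at 5.03 ± 0.03, against 6.51 ± 0.03 in T24 (SD, n = 3 each), so it was at least 2-fold lower and its likeness rests on values not above background. For *APOBEC3B* they were *TXNDC5* (0.0339), *QNG1* (0.0411) and *ABLIM3* (0.0429), with differences of −1.09, −1.07 and −1.12. None is a neighbour of the APOBEC3 array, and with 2 lines the measure mostly ranks genes by the size of their fall.

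Leukocytes express many APOBEC3 genes, and 13 of 14 leukocyte markers stayed under the bound in both lines, *PTPRC*, *CD3E* and *CD14* among them. *CD68*, also a lysosomal gene of other cells, was the exception and rose. The summed leukocyte marker level on the log2 scale was 11.13 to 11.21 in T24/THP and 10.05 to 10.19 in T24, most of it *CD68*, and its part in the APOBEC3 falls was not tested. Of 15 urothelial and epithelial markers only *KRT7*, *KRT8* and *KRT18* were above background, and the uroplakins, *GATA3*, *EPCAM* and *CDH1* were not, while 5 of 7 mesenchymal markers were. The summed level was 15.40 to 15.63 in T24/THP and 15.18 to 15.35 in T24 for the epithelial list, and 17.65 to 17.88 in T24/THP and 17.99 to 18.28 in T24 for the mesenchymal one, which *FN1* dominates. The mesenchymal markers went both ways, as *VIM* was 11.4-fold higher at 10.64 ± 0.18 in T24/THP and 7.13 ± 0.13 in T24, and *SNAI2* was called lower at 6.05 ± 0.28 in T24/THP and 7.06 ± 0.19 in T24 (SD, n = 3 each, limma adjusted p of 0.00143), both named after their values were seen. The part of these markers in the APOBEC3 falls was not tested. Array medians lay between 3.71 and 3.79, and arrays of the same line correlated across genes at 0.9967 to 0.9984 (Pearson's r), those of different lines at 0.9770 to 0.9812.

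**Figure D5:**
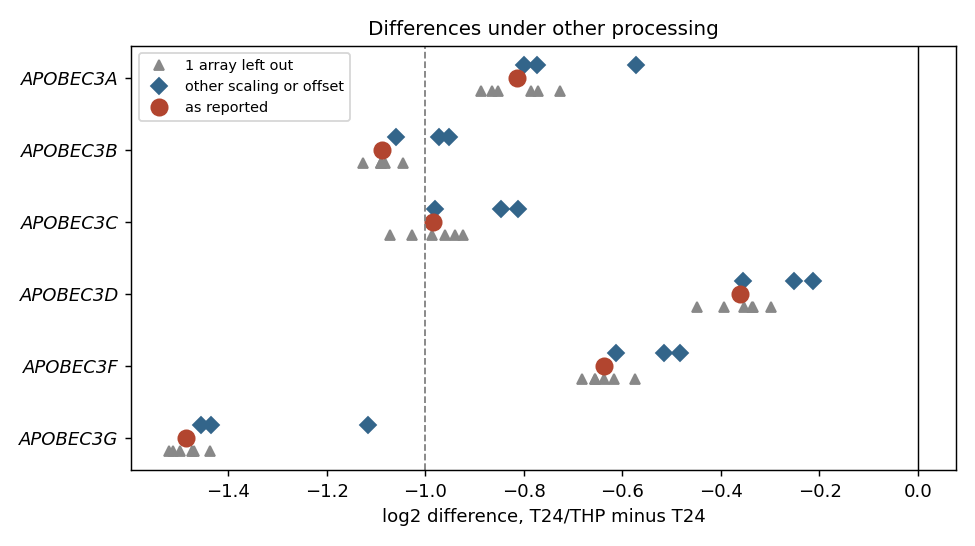
Log2 difference, T24/THP minus T24, of the 6 APOBEC3 genes above background, as reported (red circles), with another scaling or an offset (blue diamonds) and with 1 array left out (grey triangles). The dashed line marks a 2-fold fall. All values are below 0, *APOBEC3G* stays between −1.52 and −1.12, and *APOBEC3B* and *APOBEC3C* fall on both sides of the line.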

How the data were processed

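Total RNA of 3 T24/THP and 3 T24 samples was amplified and labelled as biotinylated cDNA with an Affymetrix whole-transcript kit and hybridised to arrays, per the labels' protocols. The authors deposited each transcript cluster's value per array as a log2 intensity. Per the submitters' processing notes Affymetrix Expression Console was used; version and algorithm: not given in the sources used here. Coordinates are those of the authors' deposited table, whose text names GRCh37.

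Of 65854 clusters the 26515 with 1 symbol were used. Symbols were updated through RefSeq (GRCh38.p14, names only), and for 610 genes with several clusters the brightest was kept, which gave 24930 genes. No low-value filter was applied. A 2-group model without covariates was fitted by limma 3.58.1 (lmFit, then eBayes) under R 4.3.3. The p-values were two-sided and adjusted by Benjamini-Hochberg across all genes. The fit was also run on arrays simulated from the T24 means and the fitted variances, with planted differences, and its outcome is not reported here. Pairs of genes were compared by exact permutation over the 6 arrays. A fold is given as at least a bound where 1 line was in the background range. *RPL3* and *TRIM22* were not analysed here, 1 gene that the naming rule picks is not reported here, and the planned protein comparison was not made.

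Genes named are the 9 members, up to 2 called genes per direction of each list, 11 regulators whatever their values and, per called member, the 3 nearest in pattern. Members and lists were chosen with earlier results of these data known. No setting was added later. Precision is limited by having 3 arrays a line.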

Additional observations from a re-analysis of the deposited data

How the results depend on the processing

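The directions of the 6 APOBEC3 genes above background held in all 15 alternatives, and no member was called higher in any. Without each array in turn 2 to 3 members were called lower and 5 to 6 fell at an adjusted p under 0.05. With quantile normalization 1 member was called lower, with the level trend removed 1, and against a 2-fold difference itself 1, *APOBEC3B* losing its call in each, and the cause of these changes was not tested. In that test against 2-fold 1 member passed, and over all genes 356 passed higher and 382 lower, against 710 and 941 called with the minimum difference. In the same test the counts were 0 lower among other deaminases and 1 lower in uracil repair. Flanking genes had 0 higher and 0 lower. The NF-kB list had 1 higher, and the DREAM list and the list of epithelial genes linked to *APOBEC3A* had 0 higher each. In uracil repair 1 gene was called higher with quantile normalization and 1 with the level trend removed, and 3 were lower with the offset of 32. Leaving out arrays gave 0 to 1 higher and 3 to 7 lower there. Among flanking genes 0 were lower with quantile normalization and 0 with the level trend removed, and leaving out arrays gave 0 to 1 in each direction. In the DREAM list 0 were higher with the offset of 32, and 0 to 1 with arrays left out, 0 without T24 replicate 2.

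Same-numbered arrays of the lines deviated together only weakly (correlations of 0.04, 0.15 and 0.02), so the numbers were not taken as pairs. With the replicate block 2 members were called lower and 6 fell, as without it, and 711 genes were called higher and 942 lower. *APOBEC1*, *APOBEC2* and *APOBEC3H* were left out by the filter at the 50th percentile of level. The signal of *APOBEC3G* and *APOBEC3A* in T24/THP was close to background, which limits how large a fall could be measured. *APOBEC3G* was at −1.12 with the offset of 32.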
